A study of Homo sapiens with 2 samples.

Results

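Genes of histone and DNA methylation were compared in C4-2B cells, a prostate cancer line that grows without androgen and was derived from LNCaP cells as a model of bone-metastatic, castration-resistant disease. The genes are 56 listed writers, erasers and core complex subunits, taken from a list of gene names drawn up with earlier results of these data known. Of these, 51 were found under the listed symbol, among 49672 symbols in the files. The 2 groups were cells given 2.5 µM MA4-022-1, which the labels describe as a compound that inhibits both BET bromodomain proteins and kinases, and cells given DMSO as vehicle. Each group held 1 library of total RNA depleted of ribosomal RNA, and how long the cells were exposed is not stated in the labels. With a single library on each side, the differences below could not be checked against replicates and carry no p-values. The values are RPKM as the authors deposited them, that is, reads scaled by the length of the transcript and by the size of the library.

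Methyl groups on histone tails are placed by methyltransferases, most of which carry a SET domain, and removed by demethylases of the LSD1 or Jumonji type. The residue decides the meaning of the mark: methylation of lysine 4 of histone H3 (H3K4) accompanies active promoters and enhancers, that of H3K36 accompanies transcribed gene bodies, and that of H3K27 and H3K9 accompanies silenced chromatin. DNA methylation at CpG sites is copied and set by the DNMT enzymes and oxidised by the TET enzymes. In prostate cancer the H3K27 methyltransferase EZH2 is known to be raised in advanced disease.

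Of the 51 genes found, 49 had rows of their own. PRMT1 and DNMT1 stood only in rows joined with a neighbouring gene, and they are given as joined rows and kept out of the counts. TET1 was below 1 RPKM in both libraries, which left 48 genes for the counts. SUV39H1 and TET3 reached 1 RPKM in only 1 library. The 5 KMT2 genes were not listed under those symbols. They had rows under older names (MLL for KMT2A, WBP7 for KMT2B, MLL3 for KMT2C, MLL5 for KMT2E, and MLL2 joined with PRKAG1 for KMT2D), matched through RefSeq synonyms, and are given apart from the counts.

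Low values moved in steps of whole reads, and these steps correspond to a total of 19955247 reads in the MA4-022-1 library and 27136737 in the vehicle library. At those totals 3 reads on a transcript of 2000 nt were worth 0.0837 RPKM with MA4-022-1 and 0.0615 RPKM with vehicle. The labelled cell type was checked against prostate markers. Of 10 such markers, 8 had rows of their own, and all 8 were expressed and within 2-fold. STEAP2, a prostate membrane protein, stood at 419 RPKM with MA4-022-1 and 239.5 with vehicle, and KRT8, a luminal keratin, at 99.96 RPKM with MA4-022-1 and 106 with vehicle. Of 10 markers of leukocytes, fibroblasts, endothelium, blood and liver, PECAM1 and ALB were among those listed at 0 in both libraries. COL1A1, at 5.03 RPKM with MA4-022-1 and 1.19 with vehicle, and HBB, at 1.26 RPKM with MA4-022-1 and 0.307 with vehicle, were the 2 that reached 1 RPKM. Each difference is given as the log2 of (RPKM + 1 with MA4-022-1) over (RPKM + 1 with vehicle). Folds come from the same ratio, and for genes of low level they are smaller than the ratio of the RPKM values themselves. Intervals in brackets cover 95% of counting error only.

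Most methylation enzymes differed little between the libraries, and 44 of the 48 lay within 2-fold. Of the 48, 3 were at least 2-fold lower with MA4-022-1, all of them methyltransferases of silencing marks (EZH2, SUV39H1 and SUV39H2). Of the 48, 1 was at least 2-fold higher, the H3K27 demethylase KDM6B. Counting the KMT2 rows under older names made that 2, with KMT2A at 2.68-fold higher, and a pseudocount of 5 in place of 1 left 1 gene at least 2-fold lower, EZH2. Among 10403 expressed protein-coding symbols, 4.16% passed 2-fold upward and 9.47% downward. The shares of the 48 genes past 2-fold were 2.08% higher and 6.25% lower. These shares rest on 1 and 3 genes, too few to be told from the background. With the KMT2 rows under older names the higher share was 3.85%. Over all 15435 expressed symbols the background was 7.79% higher and 9.63% lower. The median log2 ratio was -0.04 over the 48 genes, against -0.09 over protein-coding symbols and -0.02 over all expressed symbols.

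The classes differed more from each other than the whole set did from the background. The 29 histone methyltransferases and core subunits had a median log2 ratio of -0.15, with 9 above 0 and 20 below it. These 29 leave out the KMT2 rows under older names, which were all above 0. With the separate KMT2 rows the median was -0.11, near the -0.09 of protein-coding symbols. The 15 histone demethylases had a median of 0.21, with 11 above 0 and 4 below it. Among the protein-coding symbols 4613 lay above 0 and 5790 below it. The 4 counted genes of DNA methylation had a median of -0.22. The medians of the counted methyltransferases, demethylases and DNA methylation genes kept their signs when the libraries were scaled on housekeeping genes or to equal sums. On the housekeeping scale, however, that of the methyltransferases was -0.029 and the median of all 48 genes turned to 0.077. Medians by residue did not all keep their signs. NSD1, the median gene of the H3K36 class, turned from -0.04 to 0.07 on the housekeeping scale. No test of the difference between classes is possible with 1 library per group, and genes are not replicates.

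**Figure D1:**
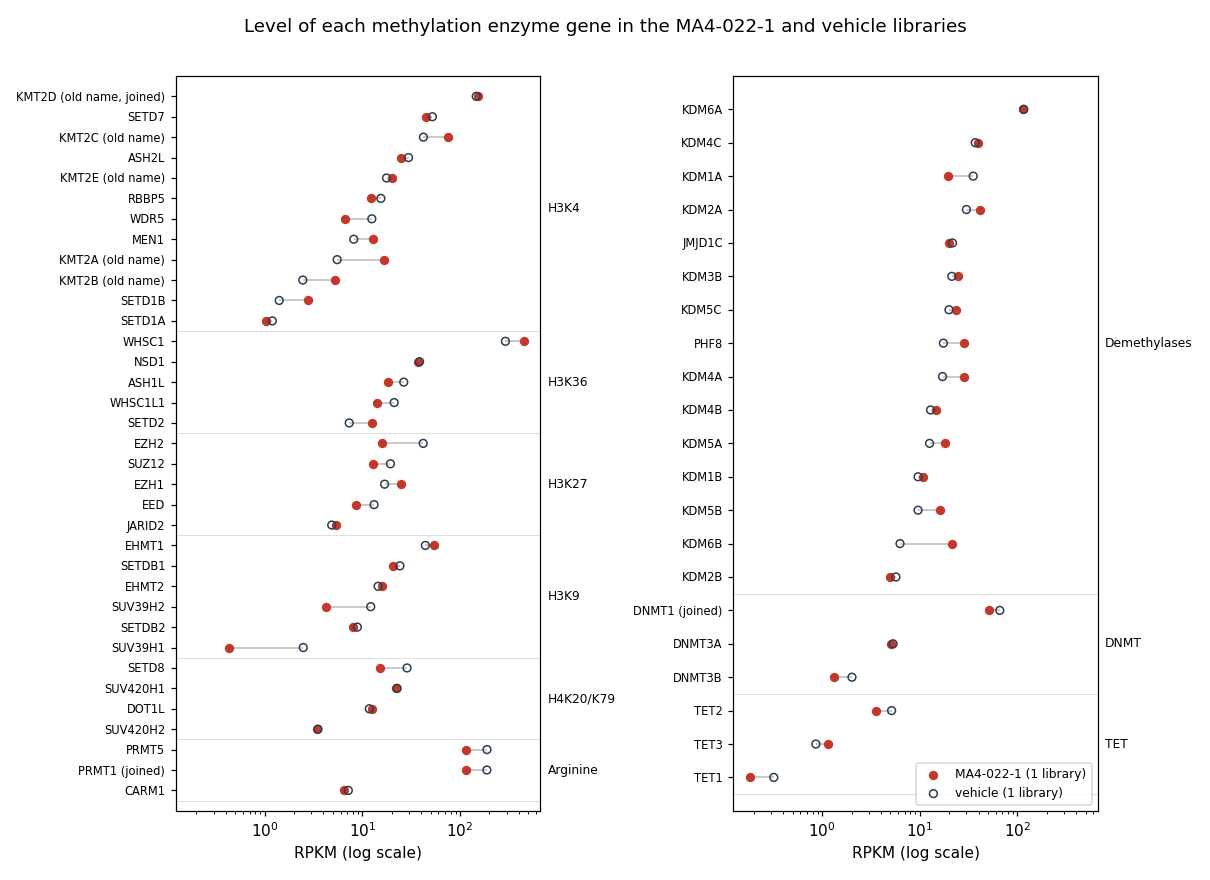
Level of all 56 genes in RPKM on a log axis, with filled points for the MA4-022-1 library and open points for the vehicle library, 1 library each, grouped by class. Most pairs of points lie close together. KDM6B (21.3 RPKM with MA4-022-1 against 6.28 with vehicle) lies to the right in the MA4-022-1 library. So does KMT2A, read from its older name (16.5 RPKM with MA4-022-1 against 5.52 with vehicle). EZH2 (16 RPKM with MA4-022-1 against 42 with vehicle), SUV39H2 and SUV39H1 lie to the left in that library.

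Polycomb repressive complex 2 (PRC2), which methylates H3K27, had members on both sides of 0. EZH2, its catalytic subunit in dividing cells, stood at 16 RPKM with MA4-022-1 and 42 RPKM with vehicle, 2.53-fold lower with a log2 ratio of -1.34 (-1.45 to -1.23) (hg19 chromosome 7, 148504475 to 148581413). EZH1, the alternative catalytic subunit that resting cells use more, went the other way at 24.6 RPKM with MA4-022-1 and 16.9 RPKM with vehicle, a log2 ratio of 0.52 (0.41 to 0.64). EZH2 therefore made up 39.4% of the summed RPKM of the pair in the MA4-022-1 library and 71.3% in the vehicle library, and the order of the 2 catalytic subunits was reversed between the libraries. RPKM is scaled by length, so the levels of the pair can be set side by side.

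The other core subunits EED and SUZ12 were lower by less than 2-fold. EED, which binds the methylated tail, stood at 8.52 RPKM with MA4-022-1 and 13.2 with vehicle, and SUZ12, the scaffold, at 12.8 RPKM with MA4-022-1 and 19.4 with vehicle. JARID2, which helps to recruit the complex, stood at 5.42 RPKM with MA4-022-1 and 4.86 with vehicle. Thus 3 of the 5 genes were lower and 2 higher, with a median of -0.57.

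The erasers of H3K27 did not move as a pair. KDM6B, a Jumonji enzyme known as an inducible gene, stood at 21.3 RPKM with MA4-022-1 and 6.28 RPKM with vehicle, 3.06-fold higher with a log2 ratio of 1.61 (1.52 to 1.71) (chromosome 17, 7742820 to 7758114). No other row at 1 RPKM or more shared its locus, and its log2 ratio stayed between 1.22 and 1.74 under all settings tried. KDM6A, its X-linked paralogue and a subunit of H3K4 methyltransferase complexes, stood at 115 RPKM with MA4-022-1 and 116 with vehicle, a log2 ratio of -0.01 (-0.05 to 0.02). KDM6A was the more abundant of the pair in both libraries, and KDM6B supplied 15.6% of their summed RPKM with MA4-022-1 and 5.13% with vehicle.

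**Figure D2:**
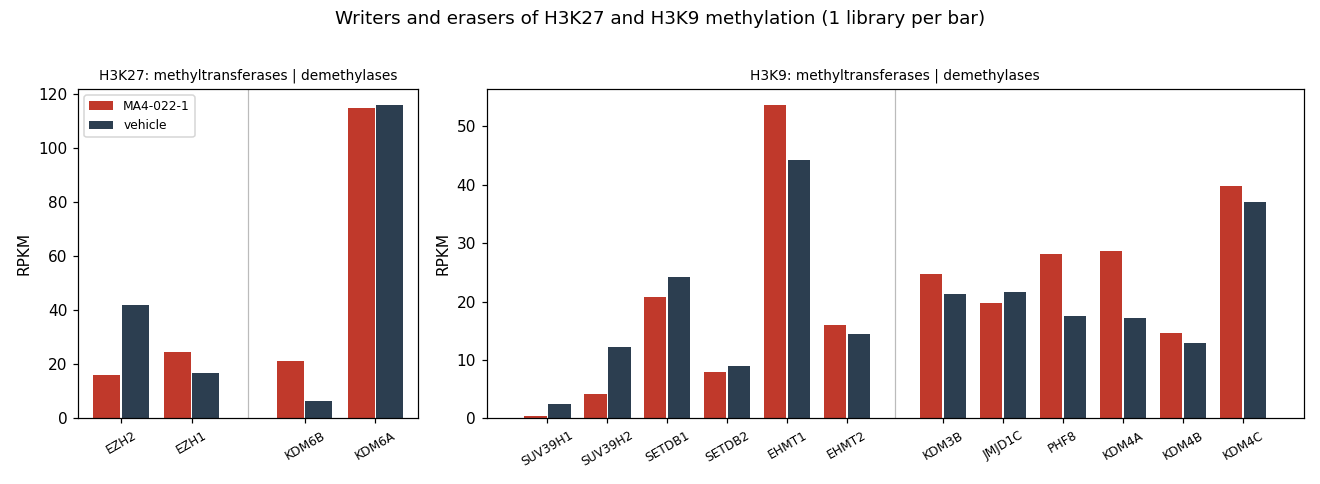
RPKM of the catalytic methyltransferases and the demethylases of H3K27 (left panel) and H3K9 (right panel), with red bars for the MA4-022-1 library and dark bars for the vehicle library, 1 library per bar. EZH2 and both SUV39 genes are lower with MA4-022-1 and KDM6B is higher, while KDM6A stands at 115 RPKM with MA4-022-1 against 116 with vehicle.

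Among the methyltransferases of H3K9, the SUV39 pair, which writes the trimethyl mark of pericentric heterochromatin, stood apart from the rest. SUV39H1 was at 0.433 RPKM with MA4-022-1 and 2.48 RPKM with vehicle, about 23 reads with MA4-022-1 and 183 with vehicle at a coding transcript's median length, a log2 ratio of -1.28 (-1.51 to -1.06) (chromosome X, 48553945 to 48595570). SUV39H2 was at 4.21 RPKM with MA4-022-1 and 12.2 RPKM with vehicle, a log2 ratio of -1.34 (-1.62 to -1.07) (chromosome 10, 14920819 to 14996431). SUV39H2 was the more abundant of the pair in either library. Their similar log2 ratios depended on the pseudocount of 1, since with a pseudocount of 0.1 they were -2.28 for SUV39H1 and -1.51 for SUV39H2. With a pseudocount of 5 they were -0.46 for SUV39H1 and -0.90 for SUV39H2, both inside 2-fold. SUV39H1 had the lowest level of the counted genes in the MA4-022-1 library. The row AF196970.3 at the SUV39H1 locus went the same way, at 0.416 RPKM with MA4-022-1 and 2.29 with vehicle. At the SUV39H2 locus DCLRE1C stood at 5.82 RPKM with MA4-022-1 and 7.91 with vehicle. The labels do not say whether strand was used in the counting, so reads of overlapping rows cannot be told apart.

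The other H3K9 methyltransferases differed by 1.21-fold or less. SETDB1, which silences retroelements, stood at 20.8 RPKM with MA4-022-1 and 24.2 with vehicle, and its relative SETDB2 at 7.94 RPKM with MA4-022-1 and 8.89 with vehicle. EHMT1 and EHMT2, which form the dimer that writes H3K9 mono- and dimethylation in euchromatin, stood at 53.7 RPKM with MA4-022-1 against 44.2 with vehicle and at 16 RPKM with MA4-022-1 against 14.5 with vehicle.

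The erasers of H3K9 all lay within 2-fold. KDM4A, which also demethylates H3K36, stood at 28.6 RPKM with MA4-022-1 and 17.1 with vehicle, a log2 ratio of 0.71 (0.63 to 0.79). PHF8, which removes H3K9 dimethylation and H4K20 monomethylation, stood at 28.1 RPKM with MA4-022-1 and 17.5 with vehicle, a log2 ratio of 0.66 (0.58 to 0.73). KDM4B and KDM4C lay at 14.6 RPKM with MA4-022-1 against 12.9 with vehicle and at 39.8 RPKM with MA4-022-1 against 37.0 with vehicle, KDM3B at 24.8 RPKM with MA4-022-1 against 21.3 with vehicle, and JMJD1C at 19.7 RPKM with MA4-022-1 against 21.6 with vehicle. Of these 6 genes, 5 lay above 0 and 1 below it, but KDM4C turned to -0.04 with equal sums and KDM4B came to 0.03. At the KDM4A locus the neighbour ST3GAL3 stood at 39.2 RPKM with MA4-022-1 and 19.0 with vehicle, and the larger row of the antisense gene KDM4A-AS1 at 28.9 RPKM with MA4-022-1 and 19.1 with vehicle, so the row of KDM4A did not move alone. The part of these neighbours in its value was not tested.

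Genes of H3K4 methylation gave a mixed picture that turned on the naming of the KMT2 family. The counted genes were the smaller enzymes and those shared core subunits that were listed and had rows of their own. WDR5, the propeller that docks the histone tail, had the lowest log2 ratio of them, at 6.65 RPKM with MA4-022-1 and 12.5 with vehicle, a log2 ratio of -0.82 (-0.97 to -0.67). Its partners RBBP5 and ASH2L were lower by less, at 12.3 RPKM with MA4-022-1 against 15.5 with vehicle and 24.7 RPKM with MA4-022-1 against 29.7 with vehicle (ASH2L summed over 2 rows). MEN1, or menin, which tethers KMT2A and KMT2B to chromatin, was higher at 12.9 RPKM with MA4-022-1 and 8.17 with vehicle, a log2 ratio of 0.60 (0.46 to 0.74). WDR5, RBBP5 and ASH2L were thus all lower, whereas menin was higher. DPY30, a further partner in these complexes, was not among the counted genes and stood only in a row joined with MEMO1. That row was at 89.4 RPKM with MA4-022-1 and 83.0 with vehicle. The genes in it cannot be told apart, so no direction is given for DPY30 or for the core as a whole.

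SETD1A and SETD1B, which write most promoter H3K4 trimethylation, were expressed at low levels. SETD1B stood at 2.77 RPKM with MA4-022-1 and 1.41 with vehicle, a log2 ratio of 0.65 (0.48 to 0.81), and SETD1A at 1.04 RPKM with MA4-022-1 and 1.20 with vehicle. SETD7, a monomethyltransferase that also modifies non-histone proteins, had the highest level of the counted genes in this class, at 44.8 RPKM with MA4-022-1 and 52.2 with vehicle. Over the 7 counted genes the median log2 ratio was -0.21, with 2 above 0.

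The large KMT2 enzymes were read from their older names, and of the 4 with separate rows KMT2A passed 2-fold. KMT2A, the founding member that is rearranged in leukaemia, stood at 16.5 RPKM with MA4-022-1 and 5.52 with vehicle, 2.68-fold higher with a log2 ratio of 1.42 (1.36 to 1.49) (chromosome 11, 118307205 to 118473730). Other rows share its locus, among them ARCN1 at 84.7 RPKM with MA4-022-1 and 104 with vehicle and IFT46 at 43.5 RPKM with MA4-022-1 and 35.5 with vehicle. The joined row of TMEM25 and TTC36 there stood at 20.9 RPKM with MA4-022-1 and 13.6 with vehicle. The part of these neighbours in the value of KMT2A was not tested. KMT2B, its close paralogue, stood at 5.27 RPKM with MA4-022-1 and 2.46 with vehicle. KMT2C, which places the enhancer mark H3K4 monomethylation, stood at 76.1 RPKM with MA4-022-1 and 42.2 with vehicle. Rows of Y_RNA share the KMT2C locus, at 22.4 RPKM with MA4-022-1 against 0 with vehicle and at 4.28 RPKM with MA4-022-1 against 1.16 with vehicle. KMT2B and KMT2C were 1.81-fold and 1.79-fold higher, while KMT2E, a relative with a SET domain that binds H3K4 trimethylation, lay at 20.3 RPKM with MA4-022-1 against 17.7 with vehicle. The joined row of KMT2D and PRKAG1 stood at 151 RPKM with MA4-022-1 and 147 with vehicle, in which the genes cannot be told apart, so no direction is given for KMT2D. With the 4 separate KMT2 rows the H3K4 class had 11 genes, a median of 0.19 and 6 above 0, so the sign of its median depended on whether they were counted.

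The erasers of H3K4 ran in both directions. KDM1A, or LSD1, which removes mono- and dimethylation, had the lowest log2 ratio of the demethylases, at 19.3 RPKM with MA4-022-1 and 35.3 with vehicle, a log2 ratio of -0.84 (-0.93 to -0.74). Its paralogue KDM1B stood at 10.8 RPKM with MA4-022-1 and 9.60 with vehicle. KDM1A made up 64.1% of the summed RPKM of the pair with MA4-022-1 and 78.6% with vehicle. The KDM5 enzymes, which remove H3K4 trimethylation, were all higher. KDM5B, a gene often raised in prostate cancer, stood at 16.1 RPKM with MA4-022-1 and 9.60 with vehicle, a log2 ratio of 0.69 (0.60 to 0.77). KDM5A stood at 18.0 RPKM with MA4-022-1 against 12.6 with vehicle and KDM5C at 23.4 RPKM with MA4-022-1 against 19.9 with vehicle, again all within 2-fold.

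**Figure D3:**
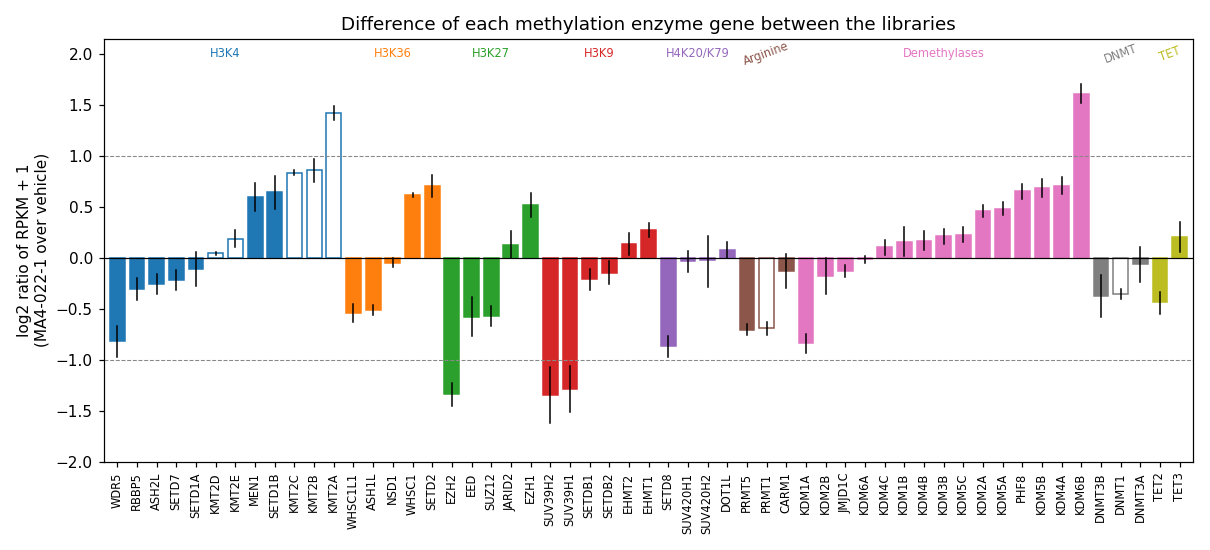
Log2 ratio of RPKM + 1 (MA4-022-1 to vehicle) for each gene at 1 RPKM or more, sorted within classes, with black lines for the 95% interval of counting error and dashed lines at 2-fold. Open bars are rows under older names or joined with a neighbour, which were not counted. Among filled bars KDM6B alone passes the upper line, at 1.61, and EZH2, SUV39H2 and SUV39H1 the lower one, at -1.34, -1.34 and -1.28.

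Methyltransferases of H3K36 went in both directions within 2-fold. SETD2, the enzyme of H3K36 trimethylation that travels with RNA polymerase II, stood at 12.6 RPKM with MA4-022-1 and 7.34 with vehicle, a log2 ratio of 0.71 (0.60 to 0.82). NSD1 lay at 37.3 RPKM with MA4-022-1 against 38.5 with vehicle. WHSC1L1, also called NSD3, and ASH1L were lower, at 14.2 RPKM with MA4-022-1 against 21.2 with vehicle and 18.3 RPKM with MA4-022-1 against 26.5 with vehicle. WHSC1, also called NSD2, which writes H3K36 dimethylation, was the most abundant gene of all the members, at 449 RPKM with MA4-022-1 and 292 with vehicle. GENCODE 29 places the small Cajal body RNA gene SCARNA22 inside it on the same strand, and no row of the tables carries that symbol, so the share of its reads in this level was not tested. The erasers grouped here under H3K36 and no other residue were KDM2A and KDM2B. KDM2A stood at 41.7 RPKM with MA4-022-1 and 30.03 with vehicle, and KDM2B at 4.93 RPKM with MA4-022-1 and 5.69 with vehicle.

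Of the enzymes of H4K20 and H3K79, SETD8 stood out. SETD8, also called KMT5A, writes H4K20 monomethylation and its protein is known to be cleared in S phase. It stood at 15.3 RPKM with MA4-022-1 and 28.7 with vehicle, 1.82-fold lower with a log2 ratio of -0.87 (-0.97 to -0.76). SUV420H1 and SUV420H2, which add the further methyl groups, lay at 22.1 RPKM with MA4-022-1 against 22.7 with vehicle and 3.43 RPKM with MA4-022-1 against 3.51 with vehicle. DOT1L, the H3K79 methyltransferase, which has no SET domain, lay at 12.5 RPKM with MA4-022-1 against 11.8 with vehicle. These 3 differed by 1.05-fold or less.

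Of the arginine methyltransferases listed, PRMT5 had a row of its own that was lower with MA4-022-1, by less than 2-fold. PRMT5, which makes symmetric dimethylarginine on histones and splicing proteins, stood at 116 RPKM with MA4-022-1 and 189 with vehicle, a log2 ratio of -0.70 (-0.75 to -0.65). Its antisense neighbour PRMT5-AS1 went the same way, at 10.6 RPKM with MA4-022-1 and 23.6 with vehicle. The row of PRMT1 joined with ADM5 stood at 116 RPKM with MA4-022-1 and 189 with vehicle as well, a log2 ratio of -0.69. PRMT1 makes most asymmetric dimethylarginine in mammalian cells. CARM1, a coactivator of nuclear receptors, stood at 6.51 RPKM with MA4-022-1 and 7.18 with vehicle, a log2 ratio of -0.12 (-0.29 to 0.04), where the counting error spans 0.

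Genes of DNA methylation stood at low levels apart from the joined row that holds DNMT1. This row of DNMT1, the maintenance enzyme, joined with S1PR2 stood at 51.5 RPKM with MA4-022-1 and 66.0 with vehicle. The genes in it cannot be told apart, so no level is given for DNMT1 itself. The de novo enzymes DNMT3A and DNMT3B stood at 5.07 RPKM with MA4-022-1 against 5.33 with vehicle and 1.33 RPKM with MA4-022-1 against 2.02 with vehicle. TET2 stood at 3.54 RPKM with MA4-022-1 and 5.15 with vehicle, a log2 ratio of -0.44 (-0.55 to -0.33), TET3 at 1.147 RPKM with MA4-022-1 and 0.863 with vehicle, and TET1 at 0.182 RPKM with MA4-022-1 and 0.320 with vehicle. No gene of this class passed 2-fold.

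**Figure D4:**
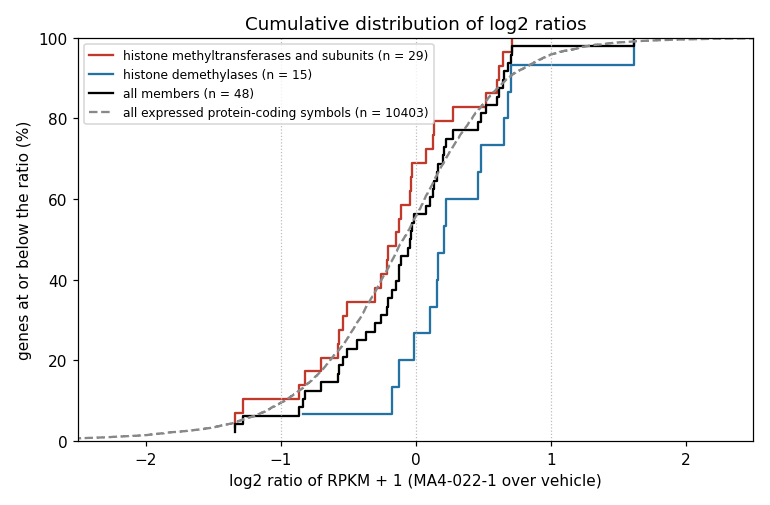
Cumulative share of genes (percent, vertical axis) at or below each log2 ratio of RPKM + 1 (horizontal axis, MA4-022-1 to vehicle), for the 29 histone methyltransferases and subunits, the 15 demethylases, all 48 counted genes and 10403 protein-coding symbols (dashed). The demethylase line lies to the right of the others around 0, with a median of 0.21, and the methyltransferase line to the left, with a median of -0.15. The KMT2 rows under older names are not included, and with the separate ones the methyltransferase median was -0.11.

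EZH2, SUV39H1 and SUV39H2 are known to be more expressed in dividing cells. In these libraries 5 genes of S phase and proliferation, picked with earlier results of these data known, were all at least 2-fold lower with MA4-022-1. Among protein-coding symbols 9.47% were. Because of how the 5 were picked, nothing is read from their count. PCNA stood at 39.7 RPKM with MA4-022-1 and 135 with vehicle, MCM2 at 7.60 RPKM with MA4-022-1 and 39.7 with vehicle, and MKI67 at 2.59 RPKM with MA4-022-1 and 6.58 with vehicle. The part of the proliferative state of the cells in the values of the methyltransferases was not tested. In bulk RNA, fewer cells of a kind and less RNA per cell cannot be told apart.

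Promoters of the methylation genes were searched for motifs of cell cycle genes in RefSeq sequences (GRCh38.p14) of 250 bases before to 50 after a start. The motifs were TTTCCCGC and TTTGGCGC, both letters of E2F sites, and TTTGAA, the core of the CHR element, on both strands. Of the 56 genes, 52 had a promoter in the table. Of these 52, 5, or 9.62%, held an E2F motif at a start, against 2.75% of all 27305 genes, expressed or not. A gene with more starts has more chances of a match. Counted by promoter, the shares were 5.81% of 86 and 2.27% of 35116. With 5 genes, no enrichment is read from these shares. The 5 genes were EZH2, JMJD1C, KDM1B, SUZ12 and WHSC1, whose log2 ratios ran from -1.34 to 0.62. The CHR letters stood in 17.3% of these genes and 18.2% of all genes. The stretches below run from 140 bases before the start to 30 after its beginning and are shown because EZH2 and SUV39H2 had the lowest ratios, with the matched letters in capitals (TTTGGCGC in EZH2, TTTGAA in SUV39H2). EZH2 lies on the minus strand at chr7:148884262-148884431 and SUV39H2 on the plus strand at chr10:14878726-14878895.
EZH2: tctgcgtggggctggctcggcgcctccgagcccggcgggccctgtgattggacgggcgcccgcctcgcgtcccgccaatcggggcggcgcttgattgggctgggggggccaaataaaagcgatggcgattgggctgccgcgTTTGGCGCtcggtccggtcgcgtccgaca
SUV39H2: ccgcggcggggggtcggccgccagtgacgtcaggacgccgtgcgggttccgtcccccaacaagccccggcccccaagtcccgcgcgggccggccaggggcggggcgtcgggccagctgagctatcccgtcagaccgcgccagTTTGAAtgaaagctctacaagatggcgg
In both genes the letters began within the first 3 bases of the annotated start, for EZH2 at 1 of its 2 starts. SUV39H1 held none of the 3 motifs at either of its 2 starts. A match is a description of letters and not a bound site.

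Counts in the lists of partners and related genes that follow stand beside the protein-coding background of 4.16% at least 2-fold higher and 9.47% lower, and nothing particular to a list is read from them. Among 7 expressed accessory subunits of PRC2 the median log2 ratio was -0.54, and 1 was past 2-fold, on the lower side. RBBP4 and RBBP7, histone-binding subunits shared with other complexes, stood at 98.2 RPKM with MA4-022-1 against 154 with vehicle and 186 RPKM with MA4-022-1 against 272 with vehicle, while PHF1, a Polycomb-like protein, stood at 11.9 RPKM with MA4-022-1 against 8.17 with vehicle. The 1 gene past 2-fold was PHF19, another Polycomb-like protein, at 0.992 RPKM with MA4-022-1 and 3.67 with vehicle, named after its values were seen. PRC1, which reads H3K27 methylation and ubiquitinates histone H2A, had a median of 0.03 over 16 subunits and all 16 within 2-fold. Its E3 ligase RING1 stood at 26.5 RPKM with MA4-022-1 and 15.5 with vehicle, the H3K27 methylation reader CBX2 at 5.08 RPKM with MA4-022-1 and 2.92 with vehicle, and YAF2 at 20.4 RPKM with MA4-022-1 and 30.4 with vehicle.

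Among partners of the H3K4 enzymes, 1 of 7 passed 2-fold. NCOA6, a coactivator found with KMT2C and KMT2D, stood at 17.5 RPKM with MA4-022-1 and 7.11 with vehicle, 2.29-fold higher. WDR82, of the SETD1 complexes, and PAXIP1, of the KMT2C and KMT2D complexes, were lower at 32.3 RPKM with MA4-022-1 against 52.5 with vehicle and 4.89 RPKM with MA4-022-1 against 8.28 with vehicle. Of the partners of KDM1A in the CoREST complex, 9 of 10 expressed members lay above 0, against 4613 of 10403 protein-coding symbols, with a median of 0.21 and none past 2-fold. Some of the 9 lay near 0, with log2 ratios of 0.06 for HDAC1, 0.06 for ZMYM2 and 0.12 for RCOR1. The count was not repeated with the libraries scaled otherwise. The member below 0 was HDAC2, at 69.0 RPKM with MA4-022-1 and 109 with vehicle. ZMYM3 and GSE1 stood at 6.26 RPKM with MA4-022-1 against 3.54 with vehicle and 29.7 RPKM with MA4-022-1 against 20.3 with vehicle.

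**Figure D5:**
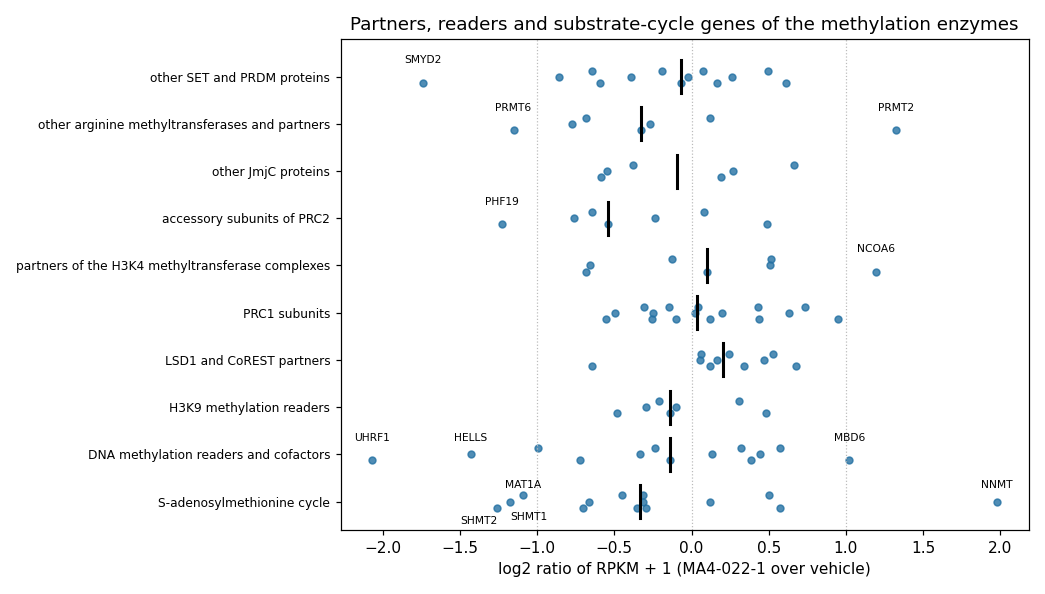
Log2 ratio of RPKM + 1 (horizontal axis, MA4-022-1 to vehicle) of expressed genes in 10 lists of partners, readers and related enzymes, 1 point per gene, with a black bar at each list's median. Names mark genes past 2-fold, among them UHRF1 at -2.07, HELLS at -1.43, SMYD2 at -1.74 and, on the higher side, NNMT at 1.98 and PRMT2 at 1.32.

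Genes that serve DNA methylation formed a further list. HELLS, a chromatin remodeller needed for DNA methylation at repeats, stood at 4.26 RPKM with MA4-022-1 and 13.2 with vehicle, 2.69-fold lower. UHRF1, which brings DNMT1 to newly replicated DNA and was named after its values were seen, stood at 0.0978 RPKM with MA4-022-1 and 3.60 with vehicle. TDG, the glycosylase that removes oxidised methylcytosine, stood at 16.6 RPKM with MA4-022-1 and 34.0 with vehicle, and MBD6, a protein with a methyl-CpG-binding domain, at 13.4 RPKM with MA4-022-1 and 6.10 with vehicle. Of 13 expressed genes in that list, 2 passed 2-fold on the lower side (15.4%, against a background of 9.47%) and 1 on the higher side (7.69%, against 4.16%), with a median of -0.14. Readers of H3K9 methylation all lay within 2-fold, with HP1 gamma (CBX3) at 138 RPKM with MA4-022-1 against 193 with vehicle and ATRX at 38.5 RPKM with MA4-022-1 against 27.3 with vehicle, and their median was -0.14 over 7 genes.

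Other methyltransferases were measured outside the 56. SMYD2, which methylates histones and p53, stood at 5.18 RPKM with MA4-022-1 and 19.6 with vehicle, 3.34-fold lower and the 1 of 13 SET and PRDM genes past 2-fold. SETD5 and SETMAR stood at 58.8 RPKM with MA4-022-1 against 38.1 with vehicle and 13.7 RPKM with MA4-022-1 against 21.9 with vehicle. Among the further arginine methyltransferases and partners, PRMT2 was 2.50-fold higher at 35.2 RPKM with MA4-022-1 against 13.5 with vehicle, while PRMT6, which methylates arginine 2 of histone H3, was 2.22-fold lower at 12.6 RPKM with MA4-022-1 against 29.3 with vehicle and PRMT3, which methylates a ribosomal protein, stood at 11.2 RPKM with MA4-022-1 against 19.8 with vehicle. The 6 other expressed Jumonji genes lay within 2-fold, 3 above 0 and 3 below it. Their median log2 ratio was -0.09, against 0.21 for the 15 listed demethylases. JMJD6 and MINA stood at 4.42 RPKM with MA4-022-1 against 7.13 with vehicle and 46.2 RPKM with MA4-022-1 against 68.0 with vehicle. JHDM1D stood at 8.14 RPKM with MA4-022-1 against 6.60 with vehicle.

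S-adenosylmethionine is the methyl donor of these enzymes. The list of its cycle also held folate enzymes that feed it. Of 14 expressed genes in that list 10 lay below 0, against 5790 of 10403 protein-coding symbols. Of the 14, 3 passed 2-fold on the lower side (21.4%, against 9.47%) and 1 on the higher side (7.14%, against 4.16%), with a median of -0.33, against -0.09 over protein-coding symbols. SHMT2 and SHMT1, the mitochondrial and cytosolic enzymes that pass the carbon of serine to folate, stood at 107 RPKM with MA4-022-1 against 258 with vehicle and 9.92 RPKM with MA4-022-1 against 23.6 with vehicle. Both were among the 3 genes past 2-fold on the lower side. MAT2A, AHCY and MTR, enzymes of the cycle itself, were within 2-fold and were named after their values were seen. Their log2 ratios were -0.32, -0.70 and -0.67. NNMT, which spends S-adenosylmethionine on nicotinamide, was 3.94-fold higher at 18.3 RPKM with MA4-022-1 and 3.90 with vehicle. The 1 other gene past 2-fold, MAT1A, was low in both libraries at 0.257 RPKM with MA4-022-1 and 1.68 with vehicle and was named after its values were seen. It reached 1 RPKM only with vehicle.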

How the data were processed

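Libraries were made with ScriptSeq after removal of ribosomal RNA and read as single 50 bp reads, per the labels' protocols. The submitters' processing notes name hg19, TopHat2 2.0.13 and Cufflinks 2.2.1. For each library there is 1 table of deposited RPKM values, per the file headers. Of 62271 rows, 2751 without a symbol were left out. Rows of 1 symbol were summed, joined symbols were kept as joint names, and short RNAs were left out of the background. Genes at 1 RPKM or more in a library were counted with a pseudocount of 1 and a threshold of 2-fold. Totals were fitted to steps of low values in processed pseudogenes. After the fit, 87.2% of 195 values with MA4-022-1 and 87.5% of 256 with vehicle lay within 2% of a whole number of reads. The totals were chosen to give such steps, so these shares are no separate check of them. Counting intervals used 4000 Poisson draws at the median length of coding transcripts in GENCODE 29, and cover neither PCR duplicates nor variation among cultures. Locus starts, counted from 0 in the files, are printed from 1. Members, lists and settings were chosen with earlier results of these data known. Members past 2-fold at 5 RPKM or more and the extremes of each class were named in full, as were up to 3 genes per related list. SUV39H1, below 5 RPKM in both libraries, was named as an extreme of its direction after its values were seen. The protein comparison that had been planned was not made, since protein sequences were not used here. Computations ran in Python 3.11.15 with pandas 2.3.3 and numpy 2.4.6, and figures were drawn with matplotlib 3.10.9. Some marker genes are not reported here.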

Additional observations from a re-analysis of the deposited data

How the results depend on the processing

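No paired analysis was possible because each group had 1 library, which also allowed no omission of a library. Of 48 genes under 6 other pseudocounts, scalings and row choices, 8 changed sign, all with a log2 ratio near 0 (DNMT3A, DOT1L, KDM4C, KDM6A, NSD1, SETD1A, SUV420H1 and SUV420H2), and SUV39H1 and SUV39H2 crossed 2-fold, with a pseudocount of 5. That pseudocount left 1 gene at least 2-fold lower, and a filter at 5 RPKM, which removes SUV39H1, left 2 of 3. With a 1.5-fold threshold 8 genes were higher (16.7% of the 48) and 7 lower (14.6%). This threshold was passed upward by 13.2% of the protein-coding background and downward by 21.9%. The share of the 48 thus lay above the background upward and below it downward, and nothing is read from so few genes. With the KMT2 rows under older symbols, added after seeing the data, 2 genes were at least 2-fold higher. At 1.5-fold, 11 of the 52 genes were then higher (21.2%) and 7 lower (13.5%). With housekeeping genes set to 0, which moved the median of all expressed symbols by 0.12, the medians were 0.077 for all members, -0.029 for histone methyltransferases and 0.33 for demethylases. With equal sums over the kept symbols, which moved the median of all expressed symbols to -0.14, they were -0.17, -0.27 and 0.074. The protein-coding background then held 3.11% higher and 11.9% lower, against 5.998% higher and 7.32% lower on the housekeeping scale. With the joined row of DNMT1 counted, the median of DNA methylation genes was -0.35. The causes were not tested. The other medians stayed inside their counting intervals and the other counts did not change, also without a filter and without WHSC1.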

Other observations

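Several rows that share a locus with a methylation enzyme had values of their own. At the KDM1A locus, RP1-184J9.2 stood at 9.11 RPKM with MA4-022-1 and 1.78 with vehicle, opposite to KDM1A. At the KDM5B locus, RP11-480I12.2 stood at 5.89 RPKM with MA4-022-1 and was listed at 0 with vehicle. At the SETDB2 locus the joined row of AL136218.1 and CAB39L stood at 5.41 RPKM with MA4-022-1 and 38.8 with vehicle, while SETDB2 itself lay at 7.94 RPKM with MA4-022-1 and 8.89 with vehicle. TET2-AS1 stood at 1.495 RPKM with MA4-022-1 and 1.21 with vehicle, and ASH1L-AS1 at 4.50 RPKM with MA4-022-1 and 2.87 with vehicle. These rows were picked after their values were seen.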
